A study of Mus musculus with 8 samples.

Results

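The interleukins and their receptors were followed in mouse blood cell progenitors that lacked the transcription factor EBF1 and then received it, or its mutant H240A, from a retrovirus. The genes were all those on the array whose name starts with Il and a digit, apart from Il7r and Il2rg, and each was read from its brightest usable probe. This gave 79 of 27337 genes on the array. They comprised 37 receptor chains, 37 ligands, 4 secreted inhibitors and 1 secreted enzyme. A usable probe was one that stood clear of background on 2 or more of the 8 arrays, and 47 members had one, among 16309 genes tested.

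All cells came from C57Bl/6 fetal liver of Ebf1-/- genotype and had been enriched for c-Kit, the receptor for stem cell factor. They were plated on OP9, a mouse stromal feeder line, with stem cell factor and Flt3 ligand at 10 ng/ml each and IL-7 at 5 ng/ml. The pMys retrovirus carried EBF1-H240A and GFP (EBF1-H240A, n = 3 arrays), wild-type EBF1 and GFP (EBF1wt, n = 3) or GFP alone (Empty, n = 2), and GFP-positive cells were sorted after 36 h. Endogenous Ebf1 was thus missing in all 3 groups, EBF1 in the first pair came from the vector, and IL-7 was supplied to every culture. The labels give no age and do not say whether replicates came from separate animals or cultures, so the p-values measure the spread between these arrays, which may be technical.

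Interleukins are secreted proteins through which blood cells, and the stroma around them, instruct one another. Most bind receptors built from a ligand-specific chain and a shared chain, which pass the signal on through Janus kinases and STAT proteins. The IL-1 family (IL-1, IL-18, IL-33 and the IL-36 proteins) and the IL-17 family use separate receptor families and adaptor proteins. In the bone marrow of adult mice, interleukin 7 is the interleukin that B-cell progenitors depend on. The IL-2, IL-12 and IL-18 receptors are better known from T, natural killer and innate lymphoid cells.

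Array quality was even. Between 54.8% and 59.8% of 43379 spots per array were well above background, no spot was saturated, and arrays of a group correlated at 0.991 to 0.995 across genes. All 6 listed progenitor markers (Kit, Cd34, Flt3, Ptprc, Sox4, Myb) were measured. Of these 4 were lower and none higher in EBF1-H240A, and 3 were lower and 1 higher (Flt3) in EBF1wt, each against Empty. Their summed scaled signal was 22901 to 23685 in EBF1-H240A, 19865 to 21085 in EBF1wt and 34372 to 36152 in Empty cells. Of 6 B-lineage markers, all 6 were called higher in EBF1wt and 5 in EBF1-H240A, each against Empty. Alb, Afp, Apoa1 and Ttr of hepatocytes, and Hba-a1 and Klf1 of erythroid cells, did not reach the detection rule. Of the other listed markers of these cells, the hepatocyte gene Ahsg was tested and was lower by -3.37 in EBF1-H240A and -1.68 in EBF1wt, and the erythropoietin receptor Epor by -0.92 in EBF1-H240A and -0.78 in EBF1wt. The part of these cells in the results below was not tested. Sorted samples are read here in bulk, so that fewer cells of a type and less RNA per cell cannot be told apart.

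Members differed first in whether they could be read at all. Of the 37 receptor chains, 27 were well above background on all 8 arrays, 3 on some of them (Il17rb, Il1rl1, Il20ra) and 7 on 1 array or none. Among the 37 ligands the order was turned round, with 8 read on all 8 arrays (Il12a, Il15, Il16, Il17d, Il18, Il1b, Il27, Il6), 6 on some and 23 on 1 array or none. The 20 ligands below background on every array included Il2, Il3, Il4, Il5, Il7, Il10, Il12b, Il21, Il23a and Il33. Il7 itself, the cytokine added to the medium, was thus not detectable as a transcript. The 6 receptor chains below background on every array were Il13ra2, Il1rapl1, Il1rapl2, Il23r, Il5ra and Il9r. Il18bp and Il4i1 were read on all 8 arrays, Il1rn on 2, and Il1f5 and Il22ra2 on none. These are limits of what the probes could detect, and members below background may still be expressed.

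EBF1 binds DNA at a palindromic sequence whose core is often written CCCNNGGG. This core, identical on both strands, was searched in RefSeq promoter windows of the assembly GRCm38.p6, each 250 bases before to 50 bases after a gene's start. It occurred in 8 of 77 windows of the members (10.4%; 62 genes had a window) and in 4491 of 32851 windows of all genes (13.7%). The 8 members were Il12rb2, Il16, Il17rb, Il1b, Il1r1, Il20ra, Il4i1 and Il6ra. The windows below belong to 4 of them that changed by over 1 on the log2 scale, and to Il18 and Il1rl2, which changed as much without holding these letters. The core stands in capitals.
Il1b (chr2:129371090-129371389, minus strand): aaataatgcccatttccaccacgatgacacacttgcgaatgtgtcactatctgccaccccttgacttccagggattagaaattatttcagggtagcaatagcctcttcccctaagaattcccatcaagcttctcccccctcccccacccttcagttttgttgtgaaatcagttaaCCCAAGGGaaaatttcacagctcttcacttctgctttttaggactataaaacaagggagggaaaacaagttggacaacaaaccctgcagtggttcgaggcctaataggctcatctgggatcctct
Il6ra (chr3:89913147-89913446, minus strand): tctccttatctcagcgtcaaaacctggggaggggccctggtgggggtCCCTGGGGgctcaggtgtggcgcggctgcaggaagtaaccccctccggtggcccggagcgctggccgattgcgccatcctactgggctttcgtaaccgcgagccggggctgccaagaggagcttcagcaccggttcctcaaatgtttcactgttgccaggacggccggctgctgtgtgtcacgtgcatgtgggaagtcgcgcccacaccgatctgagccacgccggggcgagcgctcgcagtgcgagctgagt
Il4i1 (chr7:44836038-44836337, plus strand): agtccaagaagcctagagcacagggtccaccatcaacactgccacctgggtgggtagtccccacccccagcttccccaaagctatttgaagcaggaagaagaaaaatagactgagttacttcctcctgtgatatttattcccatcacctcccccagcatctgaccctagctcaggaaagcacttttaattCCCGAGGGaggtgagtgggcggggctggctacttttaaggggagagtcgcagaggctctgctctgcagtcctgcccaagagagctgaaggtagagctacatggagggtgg
Il20ra (chr10:19712337-19712636, plus strand): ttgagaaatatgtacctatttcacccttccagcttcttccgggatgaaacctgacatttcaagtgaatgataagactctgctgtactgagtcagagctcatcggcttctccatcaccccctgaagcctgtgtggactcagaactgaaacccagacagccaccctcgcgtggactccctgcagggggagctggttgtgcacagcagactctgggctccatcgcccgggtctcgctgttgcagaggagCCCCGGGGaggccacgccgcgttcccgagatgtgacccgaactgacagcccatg
Il18 (chr9:50554450-50554749, plus strand): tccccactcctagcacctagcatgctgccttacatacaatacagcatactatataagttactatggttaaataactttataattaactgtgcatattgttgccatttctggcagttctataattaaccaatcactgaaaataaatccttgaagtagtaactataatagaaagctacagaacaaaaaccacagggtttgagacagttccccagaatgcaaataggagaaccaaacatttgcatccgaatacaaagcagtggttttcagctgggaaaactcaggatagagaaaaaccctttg
Il1rl2 (chr1:40324339-40324638, plus strand): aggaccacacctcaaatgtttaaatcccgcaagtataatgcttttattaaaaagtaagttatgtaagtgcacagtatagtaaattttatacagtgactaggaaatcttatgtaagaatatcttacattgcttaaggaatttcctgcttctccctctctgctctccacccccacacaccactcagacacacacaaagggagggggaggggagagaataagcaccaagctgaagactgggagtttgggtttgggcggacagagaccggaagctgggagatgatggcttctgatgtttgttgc
In these windows the core began 75 bases before the start of Il1b, 203 before that of Il6ra, 60 before that of Il4i1 and 4 before that of Il20ra. A match of letters is not a measured binding site, and its absence from a window says nothing about the rest of the locus.

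The first pair of comparisons asks what each EBF1 protein did to these genes in cells without their own EBF1. Both used the same 2 Empty arrays. In EBF1wt cells 11 members were higher and 15 lower than in Empty cells, and 21 of the 47 tested did not pass an adjusted p of 0.05 (limma, Benjamini-Hochberg over all genes). The 26 called members were 55.3% of those tested, against 38.4% of all genes. In EBF1-H240A cells 20 members were higher and 14 lower, and 13 did not pass. The 34 called members were 72.3% of those tested, against 44.6% of all genes. By direction, 21.6% of all genes were called higher and 23.0% lower in EBF1-H240A, and 17.2% higher and 21.3% lower in EBF1wt. The median difference of the members was 0.13 for EBF1-H240A and 0.12 for EBF1wt on the log2 scale, against medians over all genes of -0.0028 for EBF1-H240A and -0.037 for EBF1wt.

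Receptor chains and ligands are given apart. Among 30 tested receptor chains, 10 were higher and 11 lower in EBF1-H240A, and 4 were higher and 13 lower in EBF1wt. Among 14 tested ligands, 7 were higher and 3 lower in EBF1-H240A, and 5 were higher and 2 lower in EBF1wt. The median receptor chain differed from Empty by -0.12 in EBF1-H240A and -0.15 in EBF1wt, and the median ligand by 0.51 in EBF1-H240A and 0.28 in EBF1wt. No test was made of receptor chains against ligands.

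**Figure D1:**
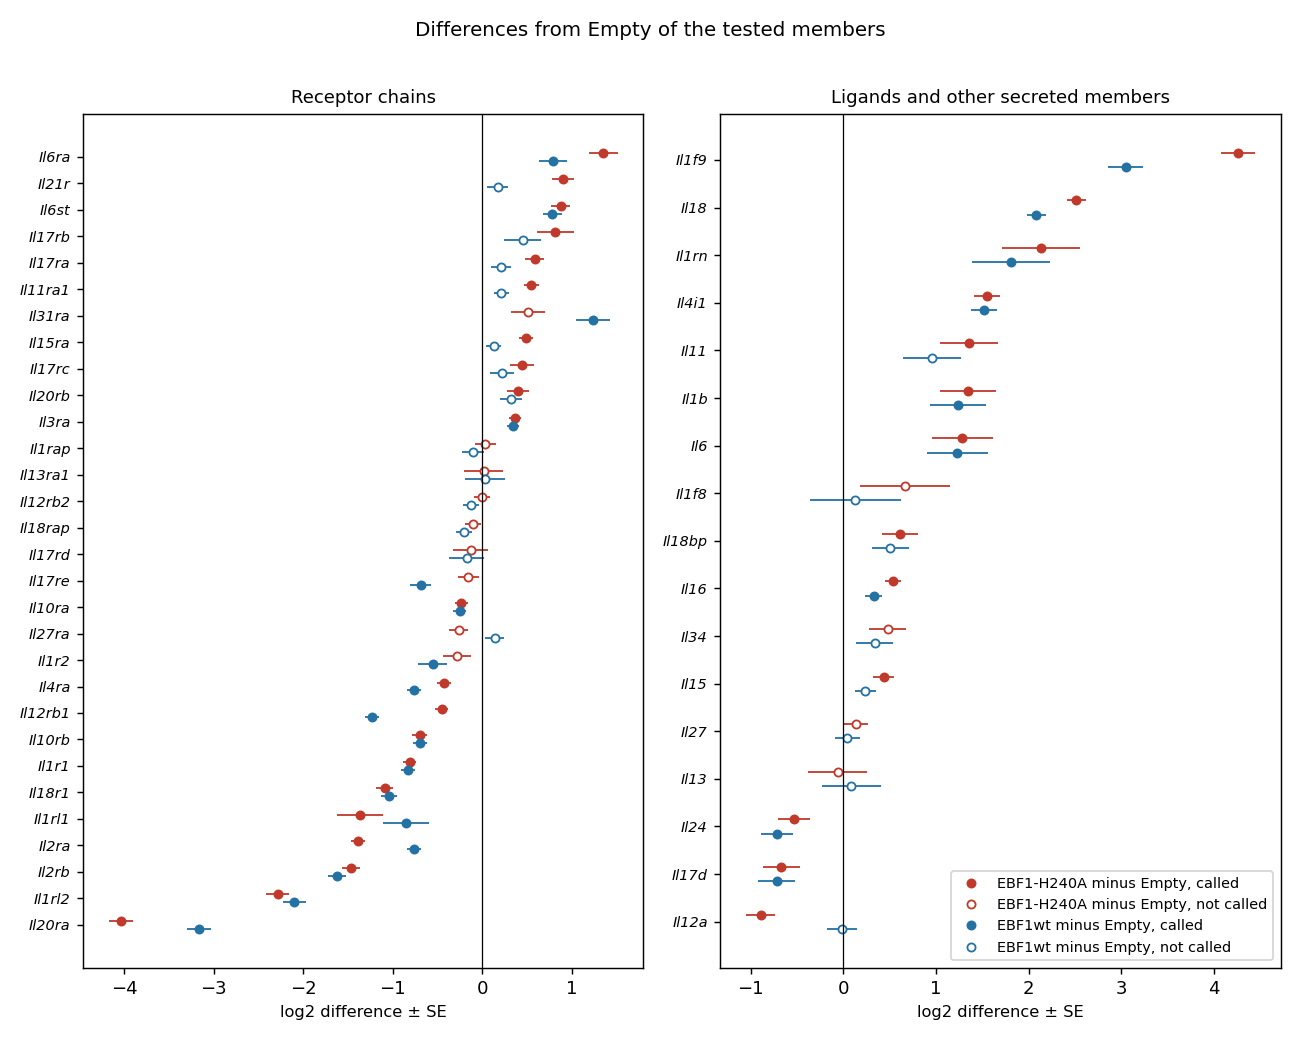
Log2 difference from Empty, with the standard error of the model, for the 30 tested receptor chains (left) and the 17 tested ligands, inhibitors and enzyme (right), EBF1-H240A in red above EBF1wt in blue. Filled points passed the adjusted p of 0.05. With both proteins Il18, Il1f9, Il4i1, Il1rn, Il1b and Il6 lie to the right of 1 and Il20ra, Il1rl2, Il2rb and Il18r1 to the left of -1. For groups below background the plotted difference is not a bound.

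Read from their brightest probes, Il20ra, Il1rl2, Il2rb and Il18r1 were lower by more than 1 on the log2 scale with both proteins, Il2ra and Il1rl1 with the mutant and Il12rb1 with wild-type EBF1. Il20ra encodes a chain of the receptor for IL-19, IL-20 and IL-24, best known from skin. The log2 signal of Il20ra was 0.30, 0.33 and 0.46 in EBF1-H240A, 1.13, 1.09 and 1.48 in EBF1wt, and 4.29 and 4.51 in Empty cells. It was well above background on both Empty arrays and on none with either EBF1 protein. Il20ra thus met the detection rule only through the Empty group, where it was high, so its adjusted p is not independent of that rule. On the scaled scanner signals Il20ra was at least 3.59-fold lower than Empty in EBF1-H240A (adjusted p = 3.9e-06). In EBF1wt it was at least 3.19-fold lower (adjusted p = 1.02e-05). With normexp background correction these differences shrank to -0.27 (adjusted p = 0.0616) for EBF1-H240A and -0.31 (adjusted p = 0.0369) for EBF1wt. The authors' value table gave -1.19 in EBF1-H240A and -1.24 in EBF1wt, smaller falls than those bounds. The probe lies at chromosome 10, 19479702 to 19479761 (mm9, as are all probe positions here). The partner chain Il20rb, in contrast, rose by 0.40 ± 0.12 in EBF1-H240A (adjusted p = 0.0352), and differed by 0.32 ± 0.12 in EBF1wt without passing (adjusted p = 0.0813). The Il20rb call was lost in 6 of the 8 fits that left out an array, at 0.31 to 0.51 over all 8.

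Il1rl2, which binds the IL-36 proteins, was read on every array. It gave log2 signals of 6.35, 6.67 and 6.63 in EBF1-H240A, 6.60, 6.67 and 6.94 in EBF1wt, and 8.82 and 8.86 in Empty cells. Every array with an EBF1 protein lay below both Empty arrays, and the mutant and wild-type arrays overlapped. Il1rl2 was 4.88-fold lower in EBF1-H240A (log2 -2.29 ± 0.13, adjusted p = 3.02e-05) and 4.29-fold lower in EBF1wt (log2 -2.10 ± 0.13, adjusted p = 5.51e-05). With normexp correction the differences were -1.61 in EBF1-H240A (adjusted p = 1.21e-10) and -1.51 in EBF1wt (adjusted p = 5.02e-10). Within slide 1 and slide 2, each of which carried all 3 groups, the differences were -2.31 and -2.23 for EBF1-H240A and -2.14 and -2.09 for EBF1wt.

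Il1rl2 belongs to a run of 6 neighbouring receptor genes of the IL-1 family on chromosome 1, with no other protein-coding gene between them in RefSeq. In gene order these are Il1r2, a decoy for IL-1, Il1r1, the signalling IL-1 receptor, Il1rl2, Il1rl1, the IL-33 receptor also called ST2, and the IL-18 receptor chains Il18r1 and Il18rap. In EBF1-H240A 4 of the 6 were lower and 2 did not pass, and in EBF1wt 5 were lower and 1 did not pass. Il18r1 gave 12.11, 12.35 and 12.24 in EBF1-H240A, 12.19, 12.31 and 12.35 in EBF1wt, and 13.38 and 13.27 in Empty cells. This is a fall of 2.13-fold in EBF1-H240A (log2 -1.09 ± 0.09, adjusted p = 0.00016) and of 2.06-fold in EBF1wt (log2 -1.04 ± 0.09, adjusted p = 0.000239). Il18rap, its partner, differed by -0.10 ± 0.09 in EBF1-H240A and -0.21 ± 0.09 in EBF1wt and passed in neither.

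Il1r1 was lower by almost the same amount with both proteins, at -0.81 ± 0.08 in EBF1-H240A (adjusted p = 0.000262) and -0.83 ± 0.08 in EBF1wt (adjusted p = 0.000299). Il1rl1 was dim. Its log2 signal was 2.41, 2.04 and 2.99 in EBF1-H240A, 3.05, 2.80 and 3.13 in EBF1wt, and 3.79 and 3.91 in Empty cells. No EBF1-H240A array and 1 EBF1wt array were well above background, against both Empty arrays. Without the Empty arrays, where it was highest, Il1rl1 would not have met the detection rule. Its adjusted p values are thus not independent of that rule. On the scaled scanner signals it was at least 2.29-fold lower in EBF1-H240A (adjusted p = 0.00499) and differed by -0.86 ± 0.26 in EBF1wt (adjusted p = 0.037). The authors' value table gave -0.67 in EBF1-H240A, a smaller fall than that bound, and -0.38 in EBF1wt. With normexp correction neither passed (-0.051 and adjusted p = 0.755 for EBF1-H240A, -0.049 and adjusted p = 0.793 for EBF1wt), and the EBF1wt call was lost in 6 of the 8 fits that left out an array. Mast cells are a known site of ST2, and of 8 listed mast cell and basophil markers 2 were tested, Cpa3 lower and Cma1 higher with each protein, and the other 6, Fcer1a and Ms4a2 among them, did not reach the detection rule. The summed signals of the tested pair were 17.4 to 19.3 in EBF1-H240A, 19.1 to 28.5 in EBF1wt and 127 to 128 in Empty cells. Their part in the Il1rl1 result was not tested. Il1r2 was lower in EBF1wt by -0.56 ± 0.16 (adjusted p = 0.0311), a call lost in 5 of those 8 fits at -0.51 to -0.64 over all 8. In EBF1-H240A it differed by -0.28 ± 0.16 and did not pass.

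Of the 8 flanking protein-coding genes, 5 were tested and 2 were lower with each protein. These were Creg2, at -1.25 in EBF1-H240A and -1.65 in EBF1wt, and Map4k4, at -0.30 in EBF1-H240A and -0.41 in EBF1wt. The adaptor chain Il1rap, which pairs with several receptors of this cluster but lies elsewhere, did not pass in either comparison.

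**Figure D2:**
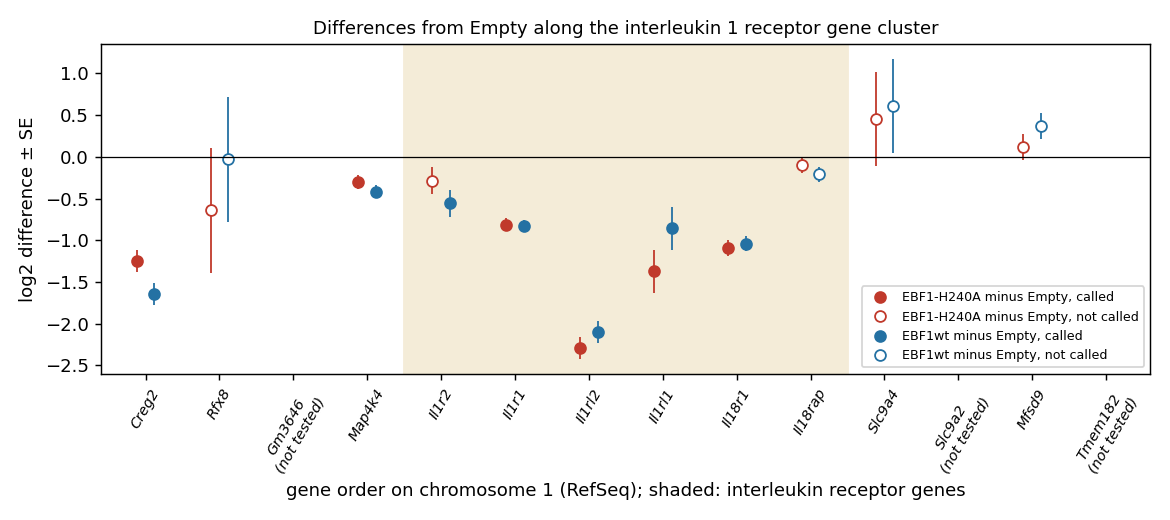
Log2 difference from Empty, with the standard error of the model, for the 6 neighbouring IL-1 family receptor genes (shaded) and the 8 flanking protein-coding genes in chromosomal order, EBF1-H240A in red and EBF1wt in blue. Filled points passed the adjusted p of 0.05. Il1r1, Il1rl2, Il1rl1 and Il18r1 lie at -0.81 or lower with both proteins, and Il18rap lies near 0.

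Chains of the IL-2 receptor fell as well. Il2rb, the signalling beta chain shared by IL-2 and IL-15, gave 9.92, 9.81 and 9.64 in EBF1-H240A, 9.60, 9.75 and 9.57 in EBF1wt, and 11.29 and 11.23 in Empty cells. All arrays with EBF1 were below both Empty arrays. The fall was 2.77-fold in EBF1-H240A (log2 -1.47 ± 0.10, adjusted p = 6.18e-05) and 3.07-fold in EBF1wt (log2 -1.62 ± 0.10, adjusted p = 4.92e-05). Il2ra, the alpha chain that gives the receptor its high affinity for IL-2, gave 7.07, 7.06 and 7.16 in EBF1-H240A, 7.81, 7.64 and 7.72 in EBF1wt, and 8.40 and 8.57 in Empty cells. The 3 groups formed 3 separate steps with the mutant lowest. Il2ra was 2.62-fold lower in EBF1-H240A (log2 -1.39 ± 0.08, adjusted p = 3.29e-05) and 1.70-fold lower in EBF1wt (log2 -0.76 ± 0.08, adjusted p = 0.000587). Its 3 usable probes agreed in sign in each comparison.

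Il15ra, the IL-15-binding chain, moved the other way from Il2rb and Il2ra in mutant cells. It gave 7.70, 7.60 and 7.77 in EBF1-H240A, 7.24, 7.40 and 7.32 in EBF1wt, and 7.17 and 7.22 in Empty cells. It rose by 0.49 ± 0.08 in EBF1-H240A (adjusted p = 0.00248) and differed by 0.12 ± 0.08 in EBF1wt, which did not pass.

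Il12rb1, the chain shared by the IL-12 and IL-23 receptors, was lowest in EBF1wt cells. Its log2 signal was 9.42, 9.37 and 9.48 in EBF1-H240A, 8.55, 8.65 and 8.75 in EBF1wt, and 9.85 and 9.91 in Empty cells. The fall was 1.37-fold in EBF1-H240A (log2 -0.46 ± 0.08, adjusted p = 0.0033) and 2.35-fold in EBF1wt (log2 -1.23 ± 0.08, adjusted p = 5.51e-05). With the authors' value table in place of the scanner signals the EBF1-H240A difference was -0.35 (adjusted p = 0.0571). Il12rb2, the IL-12-specific chain, did not pass with either protein.

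Il2rb, Il18r1 and Il12rb1 are chains known from T and innate lymphoid cells, and some listed markers of those cells were lower too. Of 7 listed markers, 6 were tested, as no probe was named Zbtb16. With each protein 4 were lower (Cd3g, Cd3d, Gata3, Tcf7), while Cd3e and Rora did not pass. The summed scaled signal of the 6 was 2568 to 3108 in EBF1-H240A, 2645 to 2667 in EBF1wt and 6460 to 7013 in Empty cells. The part of those cells in the receptor differences was not tested.

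A further group of receptor chains fell by less than 2-fold with both proteins. Il4ra, the chain for IL-4 and IL-13, gave 12.04, 11.91 and 12.07 in EBF1-H240A, 11.61, 11.76 and 11.67 in EBF1wt, and 12.45 and 12.43 in Empty cells. All EBF1 arrays were below Empty, by -0.43 ± 0.08 in EBF1-H240A (adjusted p = 0.00366) and -0.76 ± 0.08 in EBF1wt (adjusted p = 0.000398). Il10rb, the shared chain of the IL-10 and IL-22 receptors, was lower by -0.70 ± 0.08 in EBF1-H240A (adjusted p = 0.000644) and -0.69 ± 0.08 in EBF1wt (adjusted p = 0.000849). Il10ra, its partner for IL-10, differed by -0.24 in EBF1-H240A (adjusted p = 0.0334) and -0.25 in EBF1wt (adjusted p = 0.03), and that call was lost in 5 of 8 fits without an array for EBF1-H240A and in 4 of 8 for EBF1wt. Il17re, the receptor for IL-17C, gave 5.05, 4.89 and 4.83 in EBF1-H240A, 4.53, 4.20 and 4.44 in EBF1wt, and 5.15 and 5.02 in Empty cells. Only the wild-type arrays stood apart from Empty, at -0.69 ± 0.12 (adjusted p = 0.00414). That difference was -0.079 (adjusted p = 0.656) with normexp correction, and the mutant's -0.16 ± 0.12 did not pass.

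The receptor chains that rose included those of the IL-6 group, whose signal runs through the shared chain gp130. Il6ra, the IL-6-binding chain, gave 8.34, 8.06 and 8.31 in EBF1-H240A, 7.79, 7.80 and 7.44 in EBF1wt, and 6.72 and 7.05 in Empty cells. All EBF1 arrays lay above Empty and the mutant arrays lay above the wild-type ones. Il6ra was 2.56-fold higher in EBF1-H240A (log2 1.35 ± 0.16, adjusted p = 0.0007) and 1.73-fold higher in EBF1wt (log2 0.79 ± 0.16, adjusted p = 0.00868). The EBF1wt call was lost without Empty 1 (0.62, adjusted p = 0.0614). Il6st, which encodes gp130, was higher by 0.88 ± 0.11 in EBF1-H240A (adjusted p = 0.0008) and 0.78 ± 0.11 in EBF1wt (adjusted p = 0.00168). Il11ra1, the IL-11-binding chain that also uses gp130, rose by 0.55 ± 0.08 in EBF1-H240A (adjusted p = 0.00215) and differed by 0.21 ± 0.08 in EBF1wt, which did not pass. Il27ra, another partner of gp130, passed in neither comparison.

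Il31ra, the IL-31-binding chain and a relative of gp130, was highest with wild-type EBF1. Its log2 signal was 4.34, 4.57 and 3.86 in EBF1-H240A, 5.07, 4.96 and 4.91 in EBF1wt, and 3.78 and 3.71 in Empty cells. It was 2.36-fold higher in EBF1wt (log2 1.24 ± 0.19, adjusted p = 0.00269). That difference was 0.36 (adjusted p = 0.0266) with normexp correction and 0.59 (adjusted p = 0.0171) with the authors' value table. The mutant's 0.51 ± 0.19 did not pass (adjusted p = 0.0662), although no mutant array was as low as the Empty arrays.

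Il21r, the IL-21-binding chain, which signals with the chain shared with IL-2 and IL-7, was 9.11, 8.74 and 8.93 in EBF1-H240A, 8.17, 8.31 and 8.11 in EBF1wt, and 7.97 and 8.08 in Empty cells. The mutant arrays stood above all others, at 0.90 ± 0.12 over Empty (adjusted p = 0.00113), and wild-type EBF1 at 0.17 ± 0.12 did not pass. Il3ra, the IL-3-binding chain, was higher by 0.36 ± 0.07 in EBF1-H240A (adjusted p = 0.00485) and 0.35 ± 0.07 in EBF1wt (adjusted p = 0.00725). With normexp correction neither passed (0.26 and adjusted p = 0.081 for EBF1-H240A, 0.21 and adjusted p = 0.196 for EBF1wt). IL-17 receptor chains rose in mutant cells and did not pass in EBF1wt, namely Il17ra by 0.58 ± 0.11 (adjusted p = 0.00469), Il17rb by 0.81 ± 0.21 (adjusted p = 0.0175) and Il17rc by 0.45 ± 0.14 (adjusted p = 0.0351). The Il17rb and Il17rc calls were lost in 4 and 5 of the 8 fits without an array, while Il17ra kept its call in all 8. Il17rd, a relative of these chains, depended on the probe. Its brightest probe gave -0.13 in EBF1-H240A and -0.17 in EBF1wt and passed in neither. Another usable probe, above background on all 8 arrays, differed by 3.40 in EBF1-H240A and 3.09 in EBF1wt, and the third by 0.47 in EBF1-H240A and 0.40 in EBF1wt. With the mean over usable probes Il17rd passed in both comparisons, and which probe reads the gene was not tested. The remaining tested receptor chains, Il13ra1, Il18rap, Il1rap, Il12rb2 and Il27ra, passed in neither comparison.

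**Figure D3:**
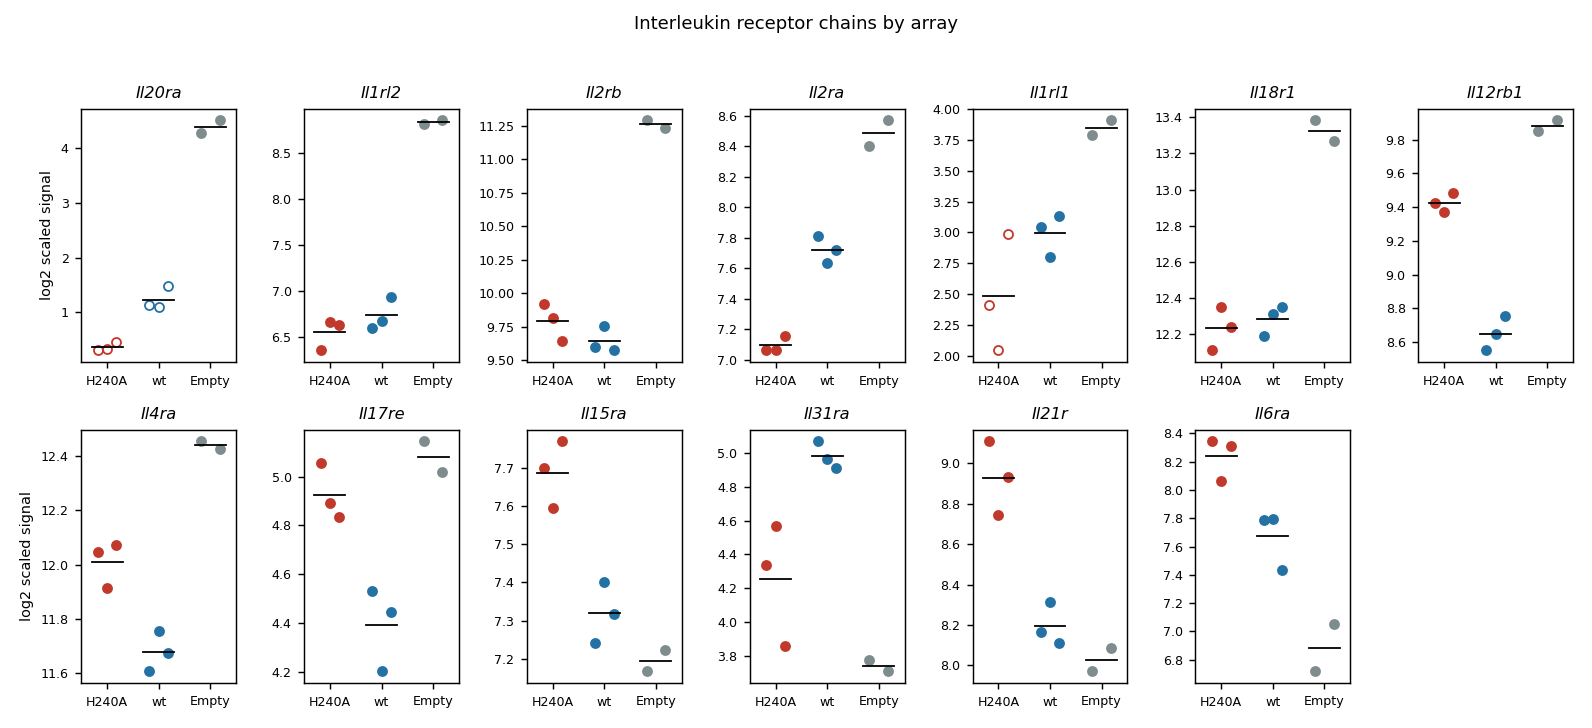
Log2 scaled signal of the 13 receptor chains with a called difference of at least 1, or a called difference between the EBF1 proteins, by array in EBF1-H240A (red), EBF1wt (blue) and Empty (grey) cells. Bars are group means, and open symbols mark groups in which no array was well above background. Each panel has its own axis, so heights are not comparable between genes. Il2ra and Il12rb1 show the 3 groups fully apart, as do Il4ra, Il6ra, Il15ra, Il20ra, Il21r and Il31ra.

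Among the secreted members that rose with both proteins were Il18, Il1f9 and Il4i1. Il18, an IL-1 family cytokine that drives interferon-gamma production in lymphocytes, gave 11.96, 11.75 and 11.94 in EBF1-H240A, 11.31, 11.58 and 11.47 in EBF1wt, and 9.42 and 9.33 in Empty cells. No array with EBF1 came near the Empty arrays. Il18 was 5.70-fold higher in EBF1-H240A (log2 2.51 ± 0.10, adjusted p = 7.83e-06) and 4.23-fold higher in EBF1wt (log2 2.08 ± 0.10, adjusted p = 1.99e-05). Within slides 1 and 2 the differences were 2.44 and 2.61 for EBF1-H240A and 2.16 and 2.06 for EBF1wt. The probe lies on chromosome 9 between 50387470 and 50389598. Il18bp, the secreted protein that neutralises IL-18, was higher by 0.61 ± 0.20 in EBF1-H240A (adjusted p = 0.0431), a call lost in 5 of the 8 fits without an array, at 0.35 without Empty 2. In EBF1wt its 0.51 ± 0.20 did not pass. Il18 was thus higher, and its receptor chain Il18r1 lower, with both proteins.

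Il1f9 encodes IL-36 gamma, a ligand of the receptor encoded by Il1rl2. The arrays gave 5.42, 4.80 and 5.32 in EBF1-H240A, 3.87, 4.08 and 3.96 in EBF1wt, and 0.83 and 1.02 in Empty cells. It stood clear of background on all 6 arrays with EBF1 and on neither Empty array, so that only a lower bound of the fold can be given. Il1f9 thus met the detection rule only through the EBF1 groups, where it was high. Its adjusted p values against Empty are therefore not independent of that rule. Il1f9 was at least 6.48-fold higher in EBF1-H240A (adjusted p = 9.54e-06) and at least 2.80-fold higher in EBF1wt (adjusted p = 4.84e-05). These bounds hold for the scaled scanner signals. With normexp correction the differences were 0.83 in EBF1-H240A (adjusted p = 4.44e-06) and 0.45 in EBF1wt (adjusted p = 0.00539). Read from the authors' value table they were 1.89 in EBF1-H240A and 1.12 in EBF1wt. Both Il1f9 probes gave the same sign, and Il1rl2 fell in the same cells. The other IL-36 genes gave little to read, since Il1f8 (IL-36 beta) did not pass and Il1f6 (IL-36 alpha) and Il1f5, an antagonist of that receptor, were below background on every array.

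Il1rn, which encodes the IL-1 receptor antagonist, was also higher. It lies near Il1f9 on chromosome 2, and the protein-coding genes between them, Il1f6, Il1f5 and Il1f10, were below background on every array. It gave 3.37, 2.28 and 3.40 in EBF1-H240A, 2.95, 2.27 and 2.87 in EBF1wt, and 1.30 and 0.48 in Empty cells. All EBF1 arrays lay above both Empty arrays, but only 2 arrays, both EBF1-H240A, were well above background. Il1rn thus met the detection rule only through the EBF1-H240A group, where it was highest, so its adjusted p is not independent of that rule. On the scaled scanner signals the rise was at least 1.45-fold in EBF1-H240A (adjusted p = 0.00625). The authors' value table gave 0.44 in EBF1-H240A (adjusted p = 0.0135), a smaller rise than that bound. In EBF1wt the difference passed (adjusted p = 0.0148) with both groups below background, and no fold is given. It did not pass without Empty 2 (1.40, adjusted p = 0.0958). With normexp correction neither passed (0.31, adjusted p = 0.0502, for EBF1-H240A and 0.23, adjusted p = 0.168, for EBF1wt).

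The inflammatory cytokines IL-1 beta and IL-6 were higher with both proteins. Il1b gave 6.13, 5.25 and 6.38 in EBF1-H240A, 5.80, 5.91 and 5.74 in EBF1wt, and 4.49 and 4.66 in Empty cells. Every EBF1 array exceeded both Empty arrays, with the mutant arrays more spread than the wild-type ones. Il1b was 2.54-fold higher in EBF1-H240A (log2 1.34 ± 0.30, adjusted p = 0.011) and 2.36-fold higher in EBF1wt (log2 1.24 ± 0.30, adjusted p = 0.0181). The EBF1-H240A call was lost without Empty 1 (1.26, adjusted p = 0.0658). In EBF1wt it was lost without Empty 1, Empty 2 or EBF1wt 2 (1.15, 1.33 and 1.19, adjusted p = 0.096, 0.0642 and 0.0518). With normexp correction the differences were 0.62 in EBF1-H240A (adjusted p = 0.000366) and 0.54 in EBF1wt (adjusted p = 0.0019).

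Il6 gave 5.24, 4.63 and 5.80 in EBF1-H240A, 5.12, 4.92 and 5.45 in EBF1wt, and 3.78 and 4.10 in Empty cells. Again no EBF1 array overlapped with Empty. The rise was 2.43-fold in EBF1-H240A (log2 1.28 ± 0.33, adjusted p = 0.0185) and 2.34-fold in EBF1wt (log2 1.23 ± 0.33, adjusted p = 0.0254). The EBF1-H240A call was lost without Empty 1 (1.12, adjusted p = 0.104) or Empty 2 (1.44, adjusted p = 0.0526). In EBF1wt it was lost without Empty 1, Empty 2, EBF1wt 1 or EBF1wt 3, at 1.07 to 1.39 with adjusted p from 0.0563 to 0.134. With normexp correction the differences were 0.48 in EBF1-H240A (adjusted p = 0.00412) and 0.41 in EBF1wt (adjusted p = 0.0152). Il6 and both chains of its receptor, Il6ra and Il6st, were thus all called higher with both proteins.

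Il11, a gp130 cytokine made mainly by stromal cells, gave 3.04, 3.35 and 3.36 in EBF1-H240A, 2.26, 2.92 and 3.37 in EBF1wt, and 2.10 and 1.70 in Empty cells. It was well above background on all 3 EBF1-H240A arrays, 1 EBF1wt array and neither Empty array. Without the EBF1-H240A arrays, where it was highest, Il11 would not have met the detection rule. Its adjusted p values are thus not independent of that rule. The rise was at least 1.70-fold in EBF1-H240A (adjusted p = 0.0119), lost without Empty 2 (1.16, adjusted p = 0.0791) with normexp correction (0.30, adjusted p = 0.06) and with the authors' value table (0.35, adjusted p = 0.0783). In EBF1wt the difference of 0.95 ± 0.31 on the log2 scale did not pass.

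Markers of stromal and of myeloid cells, both of which can make IL-1 beta, IL-6 or IL-11, moved as well. All 8 stromal markers were tested, and 6 were higher in EBF1-H240A and 4 in EBF1wt, with none lower. Their summed scaled signal was 13394 to 16664 in EBF1-H240A, 16663 to 21354 in EBF1wt and 14117 to 14717 in Empty cells. Most of that sum was Thy1, which did not pass with either protein. The mean log2 signal of the 8 was 8.07 to 8.17 in EBF1-H240A, 7.82 to 8.21 in EBF1wt and 7.20 to 7.38 in Empty cells. Of 8 macrophage and granulocyte markers 7 were tested, with Elane below the detection rule. In EBF1-H240A 4 were higher and 3 lower, and in EBF1wt 1 was higher and 3 lower. Their summed signal was 28889 to 38587 in EBF1-H240A, 18481 to 24545 in EBF1wt and 22120 to 26634 in Empty cells. The part of stromal or myeloid cells in the cytokine differences was not tested.

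Il4i1, a secreted enzyme that oxidises aromatic amino acids and was first found as an IL-4-induced gene of B cells, rose with both proteins. It gave 11.85, 11.56 and 11.90 in EBF1-H240A, 11.57, 11.75 and 11.88 in EBF1wt, and 10.11 and 10.32 in Empty cells. The mutant and wild-type arrays overlapped, and both were above Empty. The rise was 2.93-fold in EBF1-H240A (log2 1.55 ± 0.14, adjusted p = 0.000204) and 2.86-fold in EBF1wt (log2 1.52 ± 0.14, adjusted p = 0.00028).

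The remaining ligands changed by less than 2-fold. Il12a, the p35 subunit of IL-12, gave 8.01, 8.15 and 7.64 in EBF1-H240A, 8.72, 8.74 and 8.98 in EBF1wt, and 8.83 and 8.83 in Empty cells. Only the mutant arrays were low, at -0.89 ± 0.16 from Empty (adjusted p = 0.00396), while wild-type EBF1 at -0.016 ± 0.16 did not pass. Il16, a chemoattractant for CD4-positive cells, was higher by 0.53 ± 0.09 in EBF1-H240A (adjusted p = 0.00331) and 0.32 ± 0.09 in EBF1wt (adjusted p = 0.0292), the second call lost in 4 of 8 fits without an array. Il15, a growth factor of natural killer cells, rose by 0.43 ± 0.11 in EBF1-H240A (adjusted p = 0.0195), lost without Empty 2 (0.33, adjusted p = 0.123), and passed nowhere in EBF1wt. Il17d, a member of the IL-17 family, was lower by -0.67 ± 0.20 in EBF1-H240A (adjusted p = 0.0316) and -0.72 ± 0.20 in EBF1wt (adjusted p = 0.0281). Il24, a ligand of receptors with the Il20rb chain, was lower by -0.53 ± 0.17 in EBF1-H240A (adjusted p = 0.0435) and -0.72 ± 0.17 in EBF1wt (adjusted p = 0.017). With normexp correction Il17d was at -0.15 in EBF1-H240A and -0.18 in EBF1wt, and Il24 at -0.013 in EBF1-H240A and -0.038 in EBF1wt, and none of these passed. Each of the 4 calls was also lost in 2 to 6 of the 8 fits without an array. Il13, Il27, Il34 and Il1f8 passed in neither comparison.

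Several smaller calls against Empty ended under another setting. With slide as a block these were Il10ra (adjusted p = 0.052), Il18bp (adjusted p = 0.0675), Il20rb (adjusted p = 0.0544) and Il24 (adjusted p = 0.068) in EBF1-H240A, and Il10ra (adjusted p = 0.0533) and Il1r2 (adjusted p = 0.0502) in EBF1wt. With normexp correction, besides those given above, Il15, Il17rb, Il17rc and Il20rb in EBF1-H240A differed by 0.24 to 0.29 and did not pass. With the authors' value table Il15, Il17rc, Il20rb and Il3ra in EBF1-H240A, and Il10ra, Il1rl1 and Il3ra in EBF1wt, did not pass either. The mean over the usable probes of Il20rb gave 0.29 in EBF1-H240A (adjusted p = 0.304). With no filter on dim probes Il10ra, Il15, Il17d, Il17rc, Il18bp, Il20rb and Il24 in EBF1-H240A, and Il10ra, Il16, Il17d, Il1r2, Il1rl1 and Il6 in EBF1wt, had adjusted p of 0.0551 to 0.116.

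**Figure D4:**
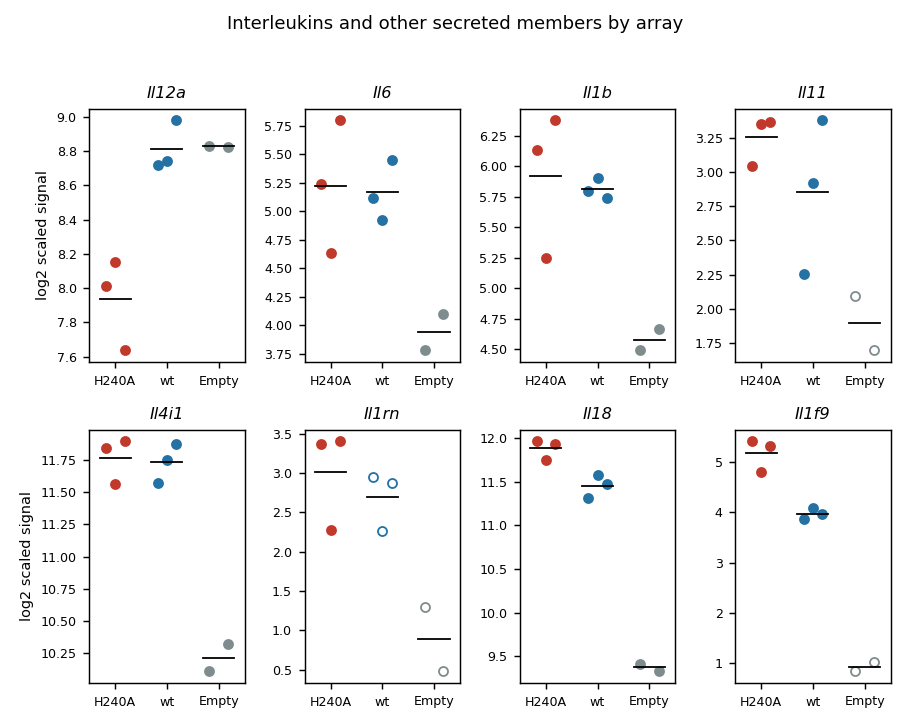
Log2 scaled signal of the 8 secreted members with a called difference of at least 1, or a called difference between the EBF1 proteins, by array in EBF1-H240A (red), EBF1wt (blue) and Empty (grey) cells. Bars are group means, and open symbols mark groups in which no array was well above background. Each panel has its own axis. Il18 and Il1f9 separate both EBF1 proteins widely from Empty, while Il12a is low only in EBF1-H240A.

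The last comparison sets the mutant against the wild-type protein. Between them 10 of the 47 tested members passed (21.3%, against 6.36% of all genes). Without EBF1wt 1 the count was 3 members and 365 of all genes, against 1038 with every array. It was 10 members without EBF1-H240A 2, and 5 or 6 without any 1 of the other arrays. Higher in EBF1-H240A were Il12rb1, Il15ra, Il17re, Il18, Il1f9, Il21r and Il4ra (3.64% of all genes were called higher), and lower were Il12a, Il20ra and Il2ra (2.72% lower). The median difference of the members was 0.11, against 0.021 over all genes. For the other 37 members a difference was not shown, which does not show that the 2 proteins acted alike on them.

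Il12rb1 and Il2ra were the pair whose calls held in all 17 alternatives other than the fits within 1 slide. Il12rb1 was 1.71-fold higher in EBF1-H240A than in EBF1wt cells (log2 0.78 ± 0.07, adjusted p = 0.00296), with 0.75 within slide 1 and 0.83 within slide 2. Its wild-type arrays lay furthest below Empty and the mutant arrays between the other groups. Il2ra was 1.54-fold lower in EBF1-H240A (log2 -0.63 ± 0.07, adjusted p = 0.00729), with -0.57 within slide 1 and -0.61 within slide 2. Here the mutant lay furthest from Empty and the wild-type protein between.

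Il1f9 was 2.31-fold higher in EBF1-H240A (log2 1.21 ± 0.17, adjusted p = 0.0113). Both groups were well above background on every array and did not overlap. The call was lost without EBF1wt 1 (1.16, adjusted p = 0.0519), and with normexp correction the difference was 0.38 (adjusted p = 0.0363). Il21r was 1.66-fold higher (log2 0.73 ± 0.11, adjusted p = 0.0134), a call lost without EBF1wt 1 (0.72, adjusted p = 0.0575) or EBF1-H240A 3 (0.73, adjusted p = 0.0514). Il12a was 1.84-fold lower (log2 -0.88 ± 0.14, adjusted p = 0.0184), a call lost in 4 of the 8 fits without an array, at -0.80 to -0.93 with adjusted p of 0.0507 to 0.0577.

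The remaining calls were small. Il17re was higher in EBF1-H240A by 0.53 ± 0.11 (adjusted p = 0.0331), Il18 by 0.43 ± 0.09 (adjusted p = 0.0429), Il15ra by 0.37 ± 0.07 (adjusted p = 0.0298) and Il4ra by 0.33 ± 0.07 (adjusted p = 0.0368). In each of the 4 the mutant arrays all lay above the wild-type arrays. For Il15ra the other usable probe differed by 0.13, and the mean over its usable probes gave 0.25 (adjusted p = 0.154). The Il17re call was lost in all 8 fits that left out an array, and the other 3 in all but the fit without EBF1-H240A 2, with differences of 0.29 to 0.60 over the 4 genes. With slide as a block their adjusted p was 0.0662 to 0.0904. Il20ra passed (adjusted p = 0.0117) with both groups below background, so no fold is given, and its sign turned with normexp correction (0.042, adjusted p = 0.964) and with the authors' value table (0.055, adjusted p = 0.876). Il6ra (0.56 ± 0.14, adjusted p = 0.0699) and Il31ra (-0.73 ± 0.17, adjusted p = 0.0566) did not overlap between the proteins but did not pass.

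**Figure D5:**
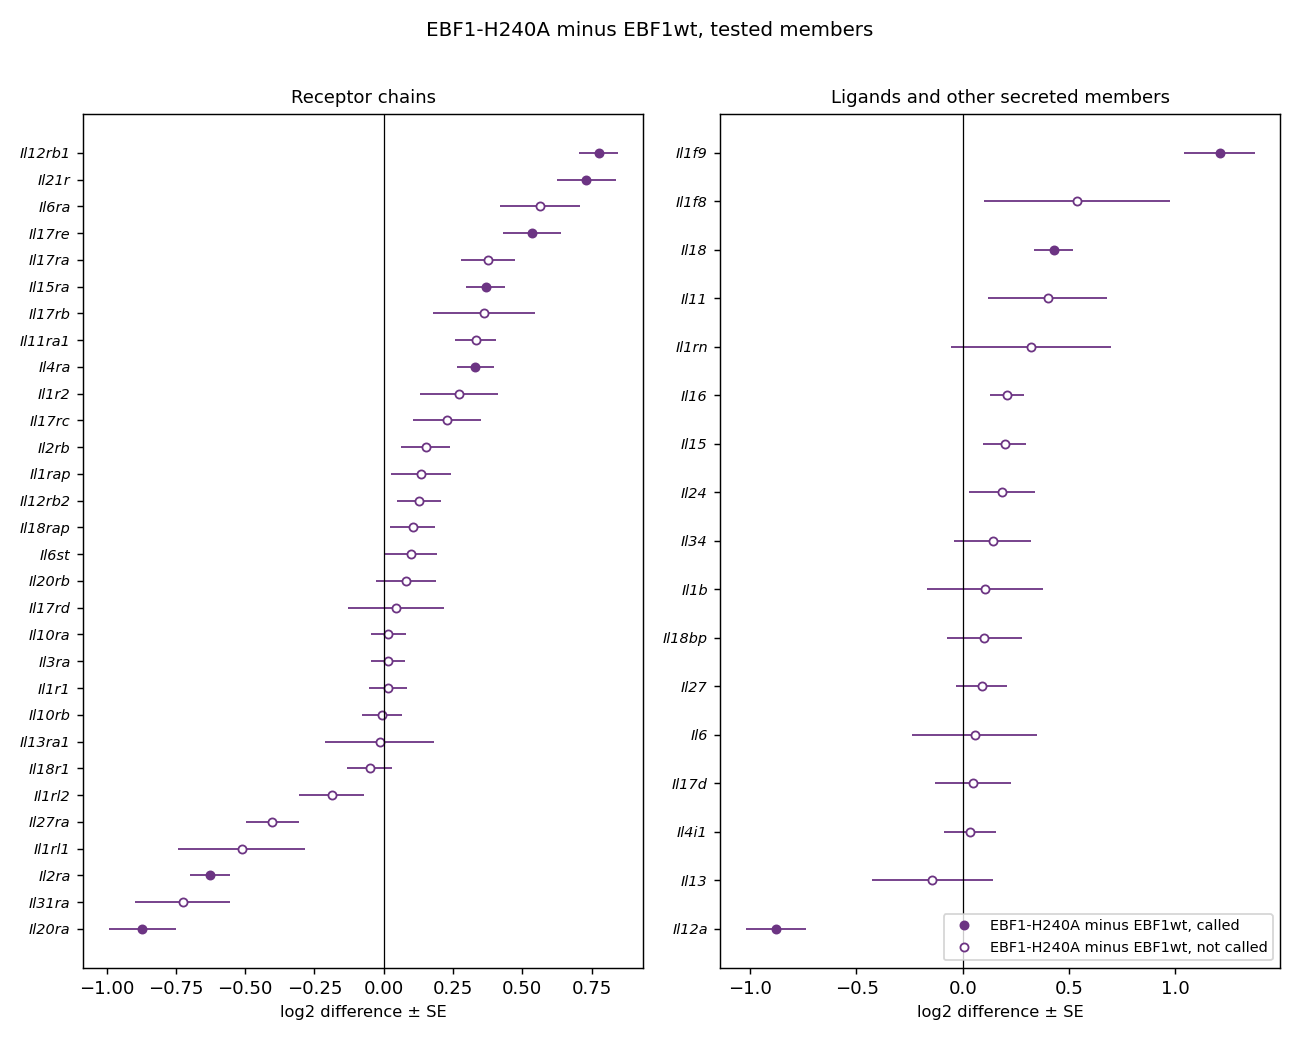
Log2 difference of EBF1-H240A minus EBF1wt, with the standard error of the model, for the 30 tested receptor chains (left) and the 17 tested ligands, inhibitors and enzyme (right). Filled points passed the adjusted p of 0.05. Il1f9 lies at 1.21 and Il12a at -0.88. Il20ra was below background in both groups, so its plotted difference has no size to read.

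Genes that carry interleukin signals inside the cell, or share receptors with the members, were read from a list of 48, of which 46 were tested. In EBF1-H240A 19 were higher and 4 lower than in Empty cells, and in EBF1wt 13 were higher and 6 lower. The 23 called in EBF1-H240A were 50.0% of the 46 tested, against 44.6% of all genes, and the 19 in EBF1wt 41.3%, against 38.4%. The median difference of the list was 0.22 in EBF1-H240A and 0.13 in EBF1wt, against medians over all genes of -0.0028 for EBF1-H240A and -0.037 for EBF1wt. Between the proteins 3 were higher and 2 lower in EBF1-H240A (10.9% of the 46 tested, against 6.36% of all genes), with a median of 0.082 against 0.021 over all genes. The smallest adjusted p fell on the same 3 genes in both comparisons with Empty, namely Cish, Il7r and Traf3ip2. Cish, a STAT5-induced inhibitor of cytokine receptors, was higher by 1.41 ± 0.07 in EBF1-H240A (adjusted p = 1.53e-05) and 1.74 ± 0.07 in EBF1wt (adjusted p = 8.2e-06). Il7r, the receptor chain for interleukin 7, was lower by -1.45 ± 0.08 in EBF1-H240A (adjusted p = 2.03e-05) and -1.09 ± 0.08 in EBF1wt (adjusted p = 8.79e-05). Traf3ip2, the adaptor of IL-17 receptors, was higher by 1.31 ± 0.07 in EBF1-H240A (adjusted p = 2.09e-05) and 1.16 ± 0.07 in EBF1wt (adjusted p = 4.46e-05).

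Between the proteins the smallest adjusted p fell on Cish, Il7r and Sh2b3. Cish was lower in EBF1-H240A by -0.33 ± 0.06 (adjusted p = 0.0277) and Il7r by -0.36 ± 0.07 (adjusted p = 0.0291). Sh2b3, an adaptor that restrains cytokine receptors, was higher by 0.36 ± 0.07 (adjusted p = 0.0326). The other pair that passed, chosen for mention after their values were seen, were Csf2rb, the shared chain of the IL-3, IL-5 and GM-CSF receptors, and Csf2rb2, its IL-3-specific relative in the mouse. Csf2rb was higher in EBF1-H240A by 0.66 ± 0.15 (adjusted p = 0.0492) and Csf2rb2 by 0.64 ± 0.14 (adjusted p = 0.0444).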

How the data were processed

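RNA of 8 samples was read on 1-colour Agilent arrays. The submitters' processing notes name Agilent Feature Extraction 10.5.1.1. Per the file headers, the deposited signals of a spot are intensities on a linear scale, and flags are 0 or 1. The authors also deposited log2 values of the same arrays, made in a way not stated here and used as an alternative. Processed signals were scaled to a common 75th percentile, set to at least 1 and log2-transformed. Spots flagged as outliers were dropped and the rest averaged by probe. Of 41174 probes 25007 were kept, and the brightest kept probe stood for a gene, with 24 kept probes lacking a value left out. The fit with limma 3.58.1 in R 4.3.3 (lmFit, eBayes) held all 8 arrays, no covariate, 5 residual and 1.80 prior degrees of freedom, and Benjamini-Hochberg adjustment over 16309 genes. Values are log2 differences ± SE. A bound on a fold sets the bright group's mean against a floor on the dim group's arrays. That floor is the lowest signal of any probe well above background on the array, or the probe's own where higher. It is not a detection limit of the probe itself, and bounds hold for the scaled scanner signals alone. Probes are not compared with each other in level. Values by array are given for members called with a difference of at least 1, or called between the EBF1 proteins. From the signalling list the 3 genes with the smallest adjusted p per comparison are named, besides Il2rg, Csf2rb and Csf2rb2. Members, lists and rules were chosen with earlier results of these data known. Gene names, promoters and gene order (of protein-coding genes alone) came from RefSeq (GRCm38.p6), where 17 members had no promoter entry. Alternatives were normexp background correction (offset 50), quantile normalization, the value table, other filters, the mean over probes, slide or replicate number as a block, each slide alone, only the groups compared, and each array left out. The fit was tried on simulated data in which 100 genes changed by 1 and 100 by 2 on the log2 scale in EBF1wt. It recovered 76% of the first and 91% of the second, and called 5 unchanged genes. Far fewer genes changed there than were called in the data.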

Additional observations from a re-analysis of the deposited data

Results flagged for a closer look

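Il22ra1, the IL-22-binding receptor chain, was not tested because it was well above background on only 1 array, EBF1wt 2, and on neither Empty array. Its log2 signal was 2.04, 2.94 and 2.49 in EBF1-H240A, 1.70, 3.29 and 2.75 in EBF1wt, and 3.04 and 2.40 in Empty cells. The groups overlapped, and the Empty 1 signal was close to that of the array above background.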

How the results depend on the processing

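Of the 70 called differences of members, 69 remained called with quantile normalization, 60 with slide as a block, 56 with the authors' value table and 49 with normexp correction. The 1 reversal in each of the last pair was Il20ra between the EBF1 proteins (0.055 and 0.042). All 70 kept their sign within slide 1 and within slide 2, where the few arrays left fewer calls. For EBF1-H240A against Empty, 7 and 4 members were called within slides 1 and 2, against 34 over all arrays, and 1096 and 322 genes of 7274. For EBF1wt against Empty the calls were 1 and 5 members, against 26, and 133 and 398 genes of 6264. Leaving out an array in turn gave 25 to 35 and 19 to 26 members in these comparisons. Between EBF1-H240A and EBF1wt the 10 called members became 6 with the value table, 5 with no filter on dim probes, 6 with slide as a block, 6 with only the 2 groups compared and 3 to 10 without an array. Within either slide limma called 0 members (5 and 14 at an unadjusted p under 0.05) and 0 genes (1526 and 1600 unadjusted). The 1038 genes called over all arrays became 641 with the value table, 338 with no filter, 646 with slide as a block and 365 to 839 without an array. Deviations from the group means correlated at -0.33 to 0.19 between arrays with the same replicate number, and the numbers were not taken as pairs. Between arrays of the same slide they correlated at -0.23 to 0.42, and the main fit had no slide term. The deviations of the 2 Empty arrays mirror each other by construction. With the replicate number as a block, 31, 22 and 3 members were called in the 3 comparisons (EBF1-H240A and EBF1wt against Empty, then the mutant against the wild type), and 360 genes in the last. The cause of these shifts was not tested. Of the 47 tested members, 10 were not above background on every array, and 2 of these (Il1rn and Il20ra) were above background in 1 group alone. Il11, Il1f9 and Il1rl1 would likewise not have met the detection rule without the groups where they were high.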

Other observations

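Among the ligands that were not tested, Il17a was well above background on 1 array, Empty 2. It gave 0.40, 0.43 and 0.82 in EBF1-H240A, 0.53, 0.60 and 1.15 in EBF1wt, and 0.86 and 4.67 in Empty cells, so that the Empty arrays disagreed with each other. Il22 and Il9 were likewise above background on a single Empty array, with log2 signals of 2.48 and 2.06 for Il22 and 0.82 and 2.86 for Il9 on Empty 1 and Empty 2.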
